A study of Mus musculus with 10 samples.

Results

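The PGC-1 coactivators, the estrogen-related receptors (ERRs), the peroxisome proliferator-activated receptors (PPARs) and their closest partners form the transcriptional circuit that sets mitochondrial content and fat use in muscle. The 9 genes described here were taken by symbol from the table of genes: Ppargc1a, Ppargc1b, Perm1, Esrra, Esrrg, Ppara, Ppard, Nrf1 and Tfam. All 9 were found among 18025 genes, and all 9 passed the filter on low counts, which left 12697 genes. Messenger RNA was sequenced from gastrocnemius, the large fast-twitch calf muscle, in 5 COPD samples and 5 control samples. Every sample was labelled as wild type, of the C57BL/6 strain, with an age of 8 weeks. COPD (chronic obstructive pulmonary disease) was modelled with cigarette smoke, per the title of the series, and the other samples carry only the label control. The labels do not say how long the exposure lasted, what the control mice inhaled, whether a sample was 1 mouse or a pool, or the sex of the mice, so that a p-value here reflects only how far these samples spread. In such bulk RNA, fewer cells of a type and less RNA per cell cannot be told apart.

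PGC-1α, the product of Ppargc1a, is a coactivator: it binds no DNA itself but docks on nuclear receptors and other factors and recruits the transcription machinery. On ERRα and ERRγ it turns on genes of the respiratory chain and the citric acid cycle, on PPARα and PPARδ genes of fatty acid use, and through nuclear respiratory factor 1 (Nrf1) the gene Tfam, whose product packages mitochondrial DNA and is needed to transcribe it. In muscle Ppargc1a is known to respond to exercise, fasting, cold and calcium signalling, and more of it accompanies oxidative fibres. Perm1 is a muscle gene induced by PGC-1 and ERR that in turn raises oxidative genes.

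Library totals ran from 14085854 to 17251034 expected counts. The fast-fibre markers (10 genes) summed to 224013 to 260565 TPM (an abundance corrected for transcript length, with the same total in each library) in COPD and 179191 to 265256 TPM in control, so that the tissue matched its label. Some libraries stood apart. The summed level of 3 genes of the Y chromosome (Kdm5d, Ddx3y, Eif2s3y) came to 82.7 and 92.5 CPM (counts scaled to library size by TMM) in COPD replicates 2 and 3, to 0.184 to 0.295 CPM in COPD replicates 1, 4 and 5, and to 81.3 to 109 CPM in the 5 controls. These transcripts were thus present in every control but not in every COPD library, so that this trait and the group are partly mixed. Along the leading principal component of the libraries, COPD replicate 5 lay at -21.9 beside the controls (-23.9 to -10.04), and the other COPD libraries lay between 11.4 and 38.03.

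None of the 9 regulators passed the test between COPD and control. With edgeR (quasi-likelihood F-test, Benjamini-Hochberg adjusted over all genes, threshold 0.05), 0 of 9 were called, where 0.063% of all tested genes were (0.0551% higher and 0.00788% lower in COPD). By DESeq2 and by voom with sample weights 0 of 9 were called too. At an unadjusted p under 0.05, edgeR listed 3 of 9, against 14.6% of all genes. Of these, Esrra and Ppard had higher means in COPD and Nrf1 a lower one. DESeq2 listed 2 of 9, against 2040 of 17903 genes, and voom 3 of 9, against 2348 of 12697 genes. In CPM the groups overlapped for each of the 9, where 2.84% of all genes had groups that did not overlap (1.29% higher and 1.55% lower in COPD). The log2 fold change was above 0 for 7 of the 9 and below 0 for 2, against 48% and 52% of all genes.

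**Figure D1:**
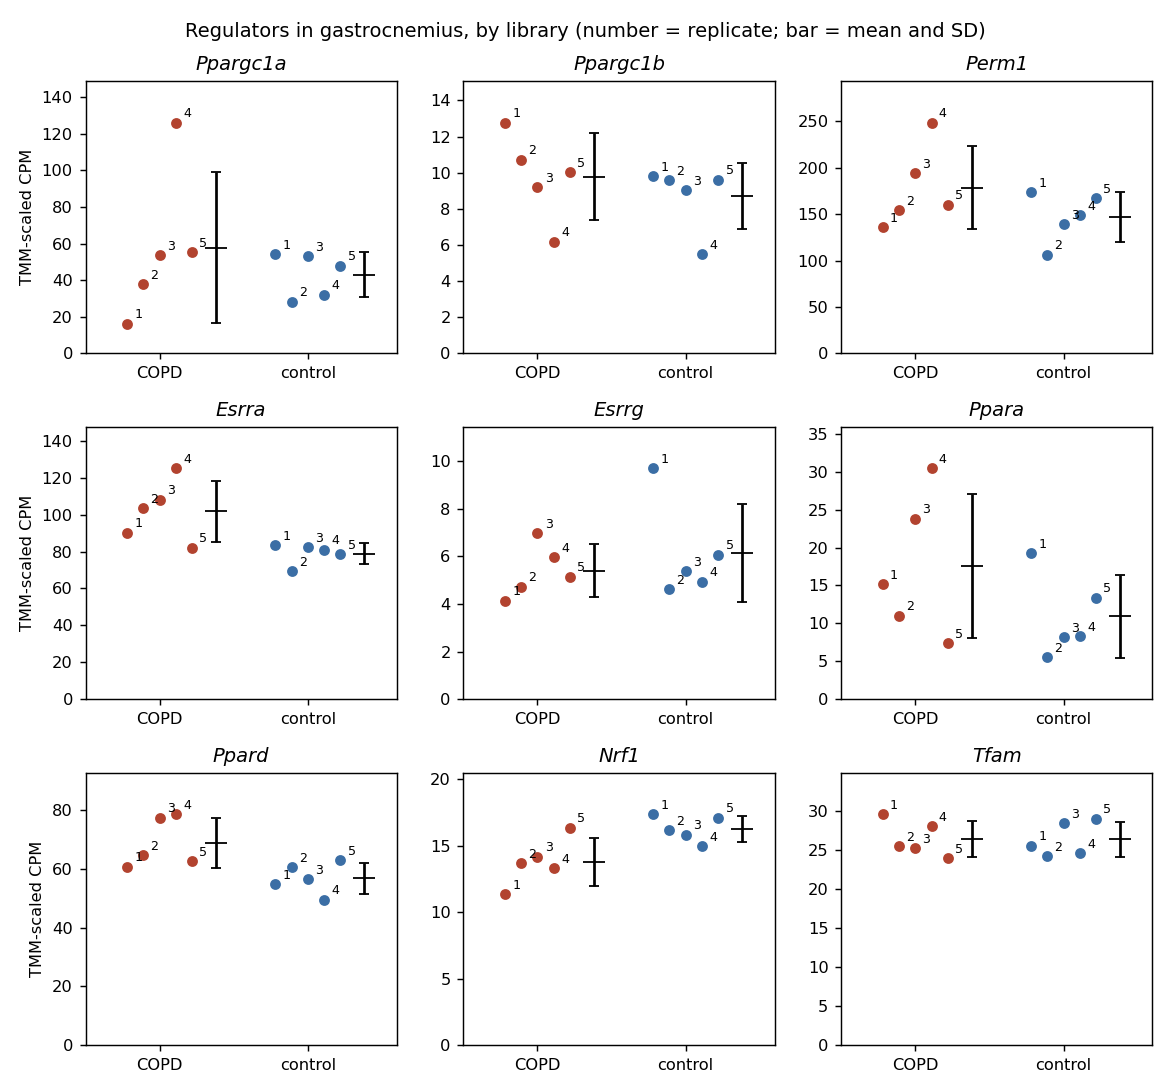
TMM-scaled CPM of the 9 regulators in each library, COPD on the left and control on the right of each panel; the number is the replicate, the bar the mean and SD of 5 libraries, and each vertical axis starts at 0. COPD replicate 4 is the highest point for Ppargc1a, Perm1, Esrra, Ppara and Ppard, and the groups overlap in every panel.

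On the TPM scale, which allows genes to be compared with each other, Esrra and Perm1 had the highest levels of the 9. Esrra averaged 78.4 ± 13.7 TPM in COPD and 68.7 ± 5.51 TPM in control, and Perm1 averaged 72.0 ± 20.9 TPM in COPD and 67.9 ± 14.1 TPM in control (SD, n = 5 each). Their ranges overlapped, so their order is not fixed. Ppard came next, at 33.1 ± 5.34 TPM in COPD and 31.5 ± 4.01 TPM in control. In the controls its range (27.60 to 36.74 TPM) touched neither neighbour, whereas in COPD it met that of Ppargc1a (3.63 to 31.82 TPM). Ppargc1a averaged 14.3 ± 10.6 TPM in COPD and 11.96 ± 3.23 TPM in control, and Tfam averaged 10.4 ± 0.816 TPM in COPD and 11.9 ± 1.09 TPM in control. Nrf1 followed at 5.62 ± 0.792 TPM in COPD and 8.55 ± 1.03 TPM in control, below Tfam in all 10 libraries. The 3 lowest were Ppara (3.72 ± 2.14 TPM in COPD and 2.70 ± 1.39 TPM in control), Esrrg (1.58 ± 0.380 TPM in COPD and 2.08 ± 0.737 TPM in control) and Ppargc1b (1.39 ± 0.298 TPM in COPD and 1.47 ± 0.324 TPM in control). The ranges of neighbours among these 3 overlapped in both groups, and in COPD that of Ppara (1.65 to 6.76 TPM) also met that of Nrf1 (4.68 to 6.38 TPM).

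Among the coactivators, Ppargc1a varied most. It was at 16.2, 37.7, 53.5, 126 and 55.3 CPM over COPD replicates 1 to 5, against 54.3, 28.2, 53.0, 32.1 and 47.8 CPM in control replicates 1 to 5. COPD replicates 4 and 1 held the highest and the lowest value of all 10 libraries, and the remaining COPD libraries lay in or just above the control range. The highest COPD library was 7.77 times the lowest, against 1.92 times among the controls. The coefficient of variation was 71.5% in COPD, above that of 97.9% of all tested genes, and 28.2% in control, above that of 82.3%. The means of 57.8 ± 41.3 CPM in COPD and 43.1 ± 12.1 CPM in control (SD, n = 5 each) gave a log2 fold change of 0.42 ± 0.41 (SE; edgeR adjusted p = 0.684). The sign rested on 1 library: without COPD replicate 4 the log2 fold change was -0.08 ± 0.32 (edgeR adjusted p = 0.939). It was 0.66 ± 0.33 without COPD replicate 1 (edgeR adjusted p = 0.400). Over the libraries with Y-linked transcripts, which leave out COPD replicates 1, 4 and 5, it was 0.09 ± 0.27 (edgeR adjusted p = 0.889).

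Ppargc1b, which encodes the related coactivator PGC-1β, was at 12.8, 10.7, 9.19, 6.17 and 10.04 CPM over COPD replicates 1 to 5, against 9.82, 9.59, 9.04, 5.49 and 9.61 CPM in control replicates 1 to 5. Its highest library, COPD replicate 1, was the lowest for Ppargc1a, and COPD replicate 4, the highest for Ppargc1a, was next to lowest for Ppargc1b. The log2 fold change was 0.17 ± 0.20 (edgeR adjusted p = 0.756). The TPM ratio of Ppargc1a to Ppargc1b was 2.10, 5.99, 10.1, 34.6 and 9.33 in COPD replicates 1 to 5, and 9.01, 4.88, 9.80, 9.57 and 8.35 in control replicates 1 to 5. Ppargc1a was the more abundant of the pair in every library, and the ratio spread much more widely in COPD. The mean ratio was 12.4 ± 12.8 in COPD and 8.32 ± 2.00 in control (SD, n = 5 each). On the log2 scale the mean ratio in COPD minus that in control was 0.05, and -0.46 without COPD replicate 4.

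Perm1 was at 136, 154, 194, 249 and 159.9 CPM over COPD replicates 1 to 5, against 174, 106, 139, 149 and 167 CPM in control replicates 1 to 5. COPD replicates 3 and 4 lay above all controls and COPD replicates 1, 2 and 5 within their range. The log2 fold change was 0.28 ± 0.18 (edgeR adjusted p = 0.499), and 0.13 ± 0.16 without COPD replicate 4 (edgeR adjusted p = 0.756). It was 0.19 ± 0.17 without control replicate 2 (edgeR adjusted p = 0.725), and 0.07 ± 0.19 by limma on log2(TPM + 1) (adjusted p = 0.830).

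The promoters of Ppargc1a and Perm1 are shown because the levels of these genes had the highest correlation among the 9 over all 10 libraries, and that of Ppara because it holds a site for NRF1. Each window has 300 bases around the start of the RefSeq gene on build GRCm38.p6, 5′ to 3′ on the strand of the gene, with motif matches in capitals. Ppargc1a lies at chr5:51567676-51567975 (minus strand), Perm1 at chr4:156215677-156215976 (plus strand) and Ppara at chr15:85735526-85735825 (plus strand). These windows are on another build than the one named for the deposited counts (mm9).
Ppargc1a: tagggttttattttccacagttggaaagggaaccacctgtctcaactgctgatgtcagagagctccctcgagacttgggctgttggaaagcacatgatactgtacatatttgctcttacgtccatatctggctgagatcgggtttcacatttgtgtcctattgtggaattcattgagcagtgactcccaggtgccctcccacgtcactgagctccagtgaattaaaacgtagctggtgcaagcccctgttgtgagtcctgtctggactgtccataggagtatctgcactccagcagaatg
Perm1: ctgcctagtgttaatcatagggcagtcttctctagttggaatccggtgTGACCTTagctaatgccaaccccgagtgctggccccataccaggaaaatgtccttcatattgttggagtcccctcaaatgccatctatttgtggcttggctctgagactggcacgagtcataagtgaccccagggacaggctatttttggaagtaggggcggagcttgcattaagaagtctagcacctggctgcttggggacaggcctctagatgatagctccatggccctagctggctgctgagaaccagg
Ppara: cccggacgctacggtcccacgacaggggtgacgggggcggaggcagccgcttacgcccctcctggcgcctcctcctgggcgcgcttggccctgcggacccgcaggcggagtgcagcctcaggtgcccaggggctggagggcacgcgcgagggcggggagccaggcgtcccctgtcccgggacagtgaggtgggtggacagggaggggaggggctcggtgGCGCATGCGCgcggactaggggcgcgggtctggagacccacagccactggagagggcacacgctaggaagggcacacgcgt

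Both strands were searched for 6 motifs. The capitals in Perm1, at bases 49 to 55 of the window, are the core of the ERR element (AAGGTCA) read on the opposite strand; 4.72% of 32851 promoter windows hold that core. The capitals in Ppara, at bases 220 to 229, are the palindromic NRF1 site, which 0.971% of windows hold. RefSeq windows were at hand for 8 of the 9 genes (12 windows), and these were the only matches in them. The full ERR element (TNAAGGTCA, which contains the core) is in 1.28% of all windows, the PPAR direct repeat (DR1) in 0.0396%, the E-box (CACGTG) in 7.15% and the cAMP response element (TGACGTCA) in 1.79%. A match or its lack describes the letters of these windows and no binding was measured.

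Of the 9 regulators, the receptor gene Esrra had the smallest p. Esrra, which encodes ERRα, the receptor through which PGC-1α reaches many respiratory genes, was at 90.2, 104, 108, 125 and 82.2 CPM over COPD replicates 1 to 5, against 83.3, 69.2, 82.4, 80.9 and 78.5 CPM in control replicates 1 to 5. COPD replicates 1 to 4 lay above all controls, and COPD replicate 5 lay within their range. The mean was 102 ± 16.6 CPM in COPD and 78.9 ± 5.68 CPM in control (SD, n = 5 each), with a log2 fold change of 0.37 ± 0.12 (edgeR adjusted p = 0.197). The adjusted p was 0.0567 by edgeR without COPD replicate 5 (log2 fold change 0.44 ± 0.11), 0.0747 over the 7 libraries with Y-linked transcripts (0.43 ± 0.12), 0.0827 by DESeq2 and 0.0888 by voom. By limma on log2(TPM + 1) the difference was 0.18 ± 0.12 (adjusted p = 0.353), and over the 22 alternatives the adjusted p ran from 0.0567 to 0.412. Exons of Esrra overlap those of Trmt112 on the opposite strand in the GENCODE M21 annotation (GRCm38), and the sources used here do not state whether counting used strand. Trmt112 itself was at 47.6 ± 9.88 CPM in COPD and 50.9 ± 6.65 CPM in control (log2 fold change -0.10 ± 0.14, edgeR adjusted p = 0.806).

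Esrrg, which encodes ERRγ, a relative that is more abundant in slow, oxidative muscle, was at 4.14, 4.73, 6.98, 5.97 and 5.14 CPM over COPD replicates 1 to 5, against 9.71, 4.62, 5.38, 4.94 and 6.08 CPM in control replicates 1 to 5. Control replicate 1 was higher than every other library, and the remaining 9 lay between 4.14 and 6.98 CPM. The log2 fold change was -0.19 ± 0.22 (edgeR adjusted p = 0.743), and 0.04 without control replicate 1 (edgeR adjusted p = 0.956). Markers of slow fibres had lower means in COPD: all 8 tested had a log2 fold change below 0 (median -1.20), 3 at an unadjusted p under 0.05 and 0 past the adjusted threshold by edgeR. They summed to 134 to 538 TPM in COPD and 269.9 to 1609 TPM in control, with no marker at 0 in every library. The slow myosin gene Myh7 was highest in control replicates 1 and 4 (319 and 180 CPM). Control replicate 1 also held the highest Esrrg, whereas control replicate 4 lay among the low Esrrg libraries. The part of slow fibres in the levels of these regulators was not tested. The TPM ratio of Esrra to Esrrg was 58.6, 57.6, 40.9, 55.2 and 42.0 in COPD replicates 1 to 5, against 22.2, 39.2, 39.8, 43.3 and 32.4 in control replicates 1 to 5. Esrra was thus the far more abundant receptor in every library, and the groups of ratios overlapped only through control replicate 4.

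Ppara, which encodes PPARα, the fatty acid sensor of oxidative tissues, was at 15.1, 11.0, 23.8, 30.5 and 7.35 CPM over COPD replicates 1 to 5, against 19.3, 5.50, 8.18, 8.32 and 13.4 CPM in control replicates 1 to 5. COPD replicates 3 and 4 exceeded every control, and COPD replicate 5 was lower than all controls but 1. It had the largest log2 fold change of the 9, at 0.68 ± 0.40, with wide spread in both groups (coefficients of variation 53.9% in COPD and 50.1% in control, above those of 94.5% and 96.2% of tested genes), and did not pass (edgeR adjusted p = 0.463). It was 0.39 ± 0.38 without COPD replicate 4 (edgeR adjusted p = 0.711) and 0.32 ± 0.31 by limma on log2(TPM + 1) (adjusted p = 0.489). Ppard, which encodes PPARδ, the main PPAR of skeletal muscle, was at 60.8, 64.6, 77.4, 78.6 and 62.5 CPM over COPD replicates 1 to 5, against 54.7, 60.5, 56.4, 49.4 and 63.0 CPM in control replicates 1 to 5. COPD replicates 2, 3 and 4 lay above all controls. The log2 fold change was 0.28 ± 0.11 (edgeR adjusted p = 0.272), and 0.07 ± 0.13 by limma on log2(TPM + 1) (adjusted p = 0.741). In TPM Ppard was much more abundant than Ppara in every library: the ratio of Ppara to Ppard was 0.0520 to 0.171 in COPD and 0.0402 to 0.154 in control.

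**Figure D2:**
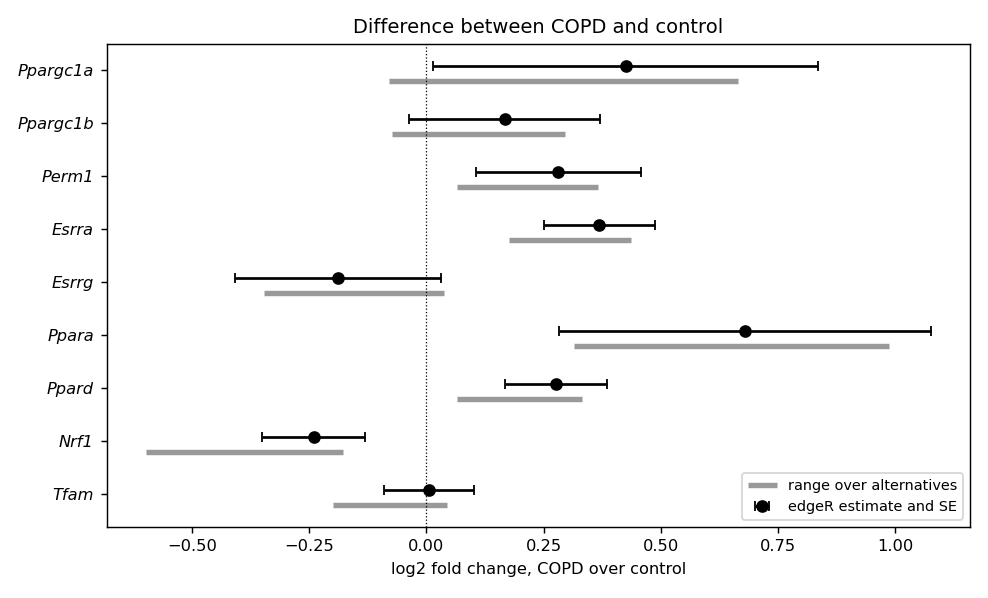
Log2 fold change of each regulator, COPD over control, with its standard error (black; edgeR) and the range of its values over the 22 alternative settings (grey). Esrra, Ppara, Ppard, Perm1 and Nrf1 keep their sign in all 22, and Ppargc1a, Ppargc1b, Esrrg and Tfam cross 0.

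Downstream of the coactivators, Nrf1 had the lower mean in COPD. Nrf1 here is nuclear respiratory factor 1, which binds promoters of respiratory chain genes and of Tfam, and not the stress factor of similar name (Nfe2l1). It was at 11.4, 13.7, 14.2, 13.3 and 16.3 CPM over COPD replicates 1 to 5, against 17.4, 16.2, 15.8, 15.0 and 17.1 CPM in control replicates 1 to 5. COPD replicates 1 to 4 lay below all controls and COPD replicate 5 within their range. The mean was 13.8 ± 1.79 CPM in COPD and 16.3 ± 0.982 CPM in control (SD, n = 5 each), with a log2 fold change of -0.24 ± 0.11 (edgeR adjusted p = 0.340).

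In TPM the difference in Nrf1 was larger. The deposited TPM of Nrf1 were 4.68, 4.86, 6.19, 6.00 and 6.38 in COPD replicates 1 to 5 and 8.35, 8.45, 6.98, 9.37 and 9.58 in control replicates 1 to 5. On this scale the groups did not overlap, which was so, with COPD lower, for 5.28% of all tested genes. With limma on log2(TPM + 1) the difference was -0.53 ± 0.12 (adjusted p = 0.0527), on a scale where the median of all genes was -0.18. TPM divides counts by the effective length that the authors' program assigned to the gene in each library, and that length varied for Nrf1. Its expected counts per TPM, relative to the median gene of each library and with the mean over libraries set to 1, were 0.974, 1.15, 1.00, 0.994 and 1.16 in COPD replicates 1 to 5, against 1.04, 0.964, 0.989, 0.809 and 0.924 in control replicates 1 to 5. The SD of 0.101 over the 10 libraries exceeded that of 98.9% of 9056 genes with at least 50 counts in each library (median 0.00579), while for the other 8 regulators it lay between 0.00315 and 0.0144. The values of the groups overlapped, and COPD replicates 2 and 5 had the highest and control replicate 4 the lowest.

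**Figure D3:**
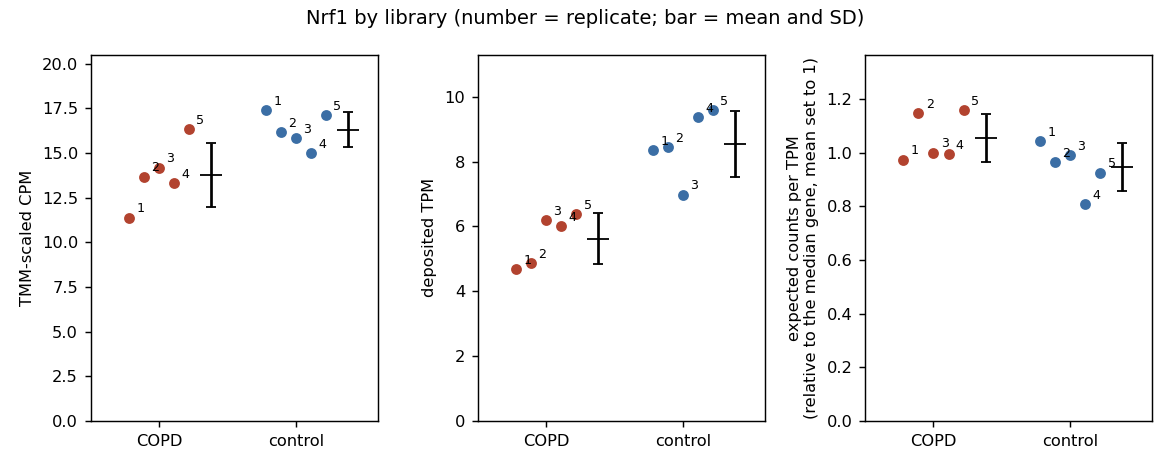
Nrf1 in each library as TMM-scaled CPM, as deposited TPM and as counts per TPM relative to the median gene (mean over the 10 libraries set to 1); numbers are replicates, bars the mean and SD of 5 libraries. The groups overlap in CPM through COPD replicate 5 (16.3 CPM) and part in TPM (4.68 to 6.38 in COPD, 6.98 to 9.58 in control).

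Tfam, which encodes the factor that packages mitochondrial DNA, had the smallest log2 fold change of the 9 in the edgeR fit. It was at 29.6, 25.5, 25.2, 28.1 and 23.9 CPM over COPD replicates 1 to 5, against 25.6, 24.2, 28.5, 24.6 and 29.0 CPM in control replicates 1 to 5. Both groups covered the same narrow range. The log2 fold change was 0.01 ± 0.10 (edgeR adjusted p = 0.987), and its sign flipped in 14 of the 22 alternatives, among them upper-quartile scaling, library size alone and TPM (-0.18 ± 0.10 by limma on log2(TPM + 1), where that of Ppargc1a was 0.001).

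The regulators varied together in part. For each pair, Pearson's r of log2 CPM was taken over the 10 libraries after the mean of each group was subtracted, as a description in which all genes share the scaling and depth of their library. Ppargc1a and Perm1 had the highest r (0.83; 0.68 without the 2 libraries farthest from the median of Ppargc1a, COPD replicates 1 and 4), but the order of the pairs changed with the libraries left out: without those farthest for Esrrg, control replicate 1 and COPD replicate 3, Esrrg had an r of 0.90 with Ppargc1a and 0.89 with Perm1. Perm1 was also close to Ppara (0.81), Esrra (0.80) and Esrrg (0.73), and these 3 values were 0.69, 0.58 and 0.78 without control replicate 2 and COPD replicate 4. Ppargc1b ran against Ppargc1a (-0.53), Perm1 (-0.57) and Esrra (-0.58), but the sign with Ppargc1a depended on which libraries were left out. It was 0.33 without COPD replicates 1 and 4, the farthest from the median of Ppargc1a, and -0.77 without COPD replicate 4 and control replicate 4, the farthest from the median of Ppargc1b. Tfam had an r of -0.51 with Nrf1 and of -0.00071 with Ppargc1a.

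**Figure D4:**
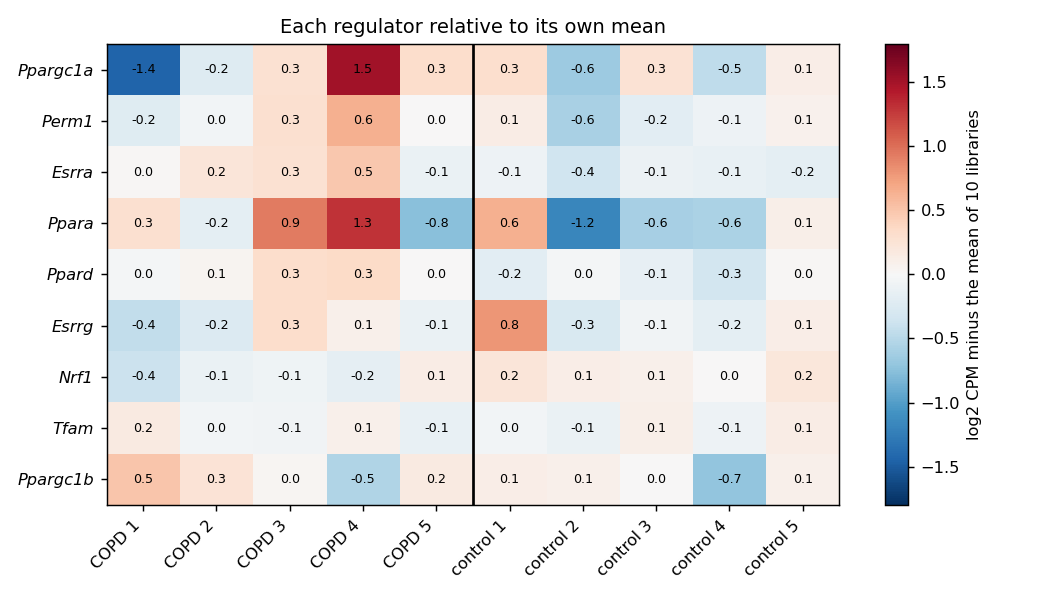
Log2 CPM of each regulator minus its own mean over the 10 libraries, COPD left of the line and control right of it (red above, blue below the mean). COPD replicate 4 is red for Ppargc1a, Perm1, Esrra, Ppara and Ppard and blue for Ppargc1b, and control replicate 2 is blue for the first 4 of these.

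Of 9031 other genes with a mean of at least 5 CPM, those most like each regulator were named by the same r. For Ppargc1a they included Osbpl1a (0.94; 0.90 without COPD replicates 1 and 4) and Lmbrd1 (0.93 and 0.77). Osbpl1a (0.95) was also first for Perm1, followed by Mdh1, the cytosolic malate dehydrogenase gene (0.93), and Tmem65 (0.92). Their r with Perm1 was 0.90, 0.84 and 0.83 without control replicate 2 and COPD replicate 4. Mdh1 was first for Ppara as well (0.93), before Ptpn3 and Lancl2 (0.92 and 0.91). Their r with Ppara was 0.88, 0.843 and 0.845 without control replicate 1 and COPD replicate 4. For Esrra the closest were Fh1, the fumarase gene (0.97), Agpat3 (0.97) and Pdhb, a subunit of pyruvate dehydrogenase (0.97), and r stayed at 0.92, 0.90 and 0.90 without COPD replicates 4 and 5. For Esrrg they were Lpl, the lipoprotein lipase gene (0.91), Ppp1r12b (0.90) and Peli1 (0.89). Without control replicate 1 and COPD replicate 3 their r was 0.78, 0.66 and 0.87. Ppard was closest to Plin3, Zxdc and Pik3ca (0.94, 0.91 and 0.90), with 0.91, 0.93 and 0.89 without COPD replicates 3 and 4. Ppargc1b was closest to Ippk, Kdm5b and Cibar1 (0.94, 0.93 and 0.92). For these r fell to 0.61, 0.74 and 0.73 without control replicate 4 and COPD replicate 4. Nrf1 was closest to Ncoa6, Prpf38b and Luc7l2 (0.98, 0.97 and 0.96), with 0.92, 0.82 and 0.91 without COPD replicates 1 and 5. Tfam was closest to Fam20c, Thy1 and Pgam5 (0.95, 0.94 and 0.94), with 0.89, 0.91 and 0.90 without control replicate 5 and COPD replicate 1.

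The other genes of the circuit were counted in 5 lists, whose members were taken from general knowledge. In none of the lists did a gene pass edgeR's adjusted threshold over all 10 libraries. At an unadjusted p under 0.05, where 7.94% of all genes had a higher and 6.64% a lower mean in COPD, the counts were as follows. Of 26 partners and coregulators, 5 were listed with a higher and 1 with a lower mean in COPD (median log2 fold change -0.05, against -0.01 over all genes). They included Nr4a3, an orphan receptor gene induced by exercise (119 ± 44.9 CPM in COPD and 61.2 ± 32.3 CPM in control, log2 fold change 0.96 ± 0.38), and Nrip1, which encodes RIP140, a corepressor of ERR and PPAR targets (-0.41 ± 0.18). The coactivator gene Crebbp had a log2 fold change of 0.35 ± 0.13 and Pparg, the PPAR of fat cells, of 0.55 ± 0.21. The scaling set the split of this list. With library size alone, where the median of all genes was -0.17, 1 was listed as higher and 9 as lower. At that setting 2780 of 12697 genes were listed in either direction. Over the 7 libraries with Y-linked transcripts edgeR called 1 gene of this list as higher, among 488 of 13195 genes.

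Among 30 genes that act upstream of PGC-1α, 3 were listed with higher and 2 with lower means in COPD. The CPM of the groups did not overlap for 4 of the 30, against 2.84% of all genes (1.29% higher and 1.55% lower). These 4 included both the smallest p of the 5 lists and opposite directions for subunit genes of 1 enzyme complex. Prkag2, a regulatory subunit gene of the energy sensor AMPK, was at 9.23, 13.9, 12.9, 15.9 and 11.8 CPM over COPD replicates 1 to 5, against 6.998, 7.81, 8.71, 5.71 and 7.02 CPM in control replicates 1 to 5 (log2 fold change 0.82 ± 0.16, edgeR adjusted p = 0.0757). Prkaa2, its catalytic subunit gene in muscle, was at 149, 166, 158, 164 and 155 CPM over COPD replicates 1 to 5, against 174, 234, 184, 186 and 213 CPM in control replicates 1 to 5 (-0.32 ± 0.10, edgeR adjusted p = 0.189). In TPM, Prkag2 averaged 8.43 in COPD and 5.30 in control, below its relatives Prkag1 (56.2 and 62.2) and Prkag3 (91.6 and 85.5). Prkag1 had a log2 fold change of 0.06 ± 0.10 and Prkag3 one of 0.31 ± 0.22 (edgeR adjusted p = 0.834 and 0.567). Mef2c, an activator of the Ppargc1a promoter, was at 384 ± 21.1 CPM in COPD and 301 ± 25.1 CPM in control (0.35 ± 0.09, edgeR adjusted p = 0.128). Among the histone deacetylases that restrain MEF2, Hdac5 was at 64.7 ± 4.96 CPM in COPD and 84.9 ± 8.38 CPM in control (-0.39 ± 0.10, edgeR adjusted p = 0.105), and Hdac4 at 48.7 ± 8.91 CPM in COPD and 32.8 ± 3.83 CPM in control (0.57 ± 0.14, edgeR adjusted p = 0.0974; SD, n = 5 each). The means of Hdac4 and Hdac5 thus lay on opposite sides of control. Of Prkag2, Prkaa2, Mef2c, Hdac5 and Hdac4, only Hdac4 had groups that overlapped in CPM. In TPM those of Prkag2 and Mef2c overlapped too. DESeq2 called 4 genes of this list, Prkag2, Mef2c and Hdac4 as higher and Hdac5 as lower, among 414 of 17903 genes. Without COPD replicate 5 edgeR called Prkag2 (0.85, adjusted p = 0.0273), among 410 of 12762 genes. Voom with sample weights called Prkag2 too (0.80, adjusted p = 0.0348), among 137 of 12697 genes. So did edgeR over the 7 libraries with Y-linked transcripts (0.90, adjusted p = 0.0232), among 488 of 13195 genes. Limma on log2(TPM + 1) called Hdac5 as lower, among 97 of 11166 genes. With library size alone, 2 of the 30 were listed as higher and 7 as lower, where 2780 of 12697 genes were listed in either direction.

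Targets of ERR and PGC-1 in oxidative metabolism leaned to higher means in COPD. By edgeR, of 27 genes 25 had a log2 fold change above 0, against 48% of all genes, 10 were listed as higher and 0 as lower at an unadjusted p under 0.05, and the median was 0.24. The fast-fibre markers had a like median: all 10 were above 0, 1 of them at an unadjusted p under 0.05, with a median of 0.23, and their part in this list was not tested. Cytochrome c (Cycs) was at 616, 680, 685, 813 and 486 CPM over COPD replicates 1 to 5, against 548, 407, 514, 473 and 420 CPM in control replicates 1 to 5. COPD replicates 1 to 4 exceeded all controls and COPD replicate 5 did not (log2 fold change 0.47 ± 0.14, edgeR adjusted p = 0.168). Cox5b, a subunit gene of cytochrome oxidase (0.42 ± 0.13), Slc25a4, the muscle ADP/ATP carrier gene (0.42 ± 0.13), Mdh2 of the citric acid cycle (0.35 ± 0.13) and Vegfa, the angiogenic factor that PGC-1α induces (0.53 ± 0.19), had edgeR adjusted p from 0.177 to 0.259. DESeq2 called Cycs, Cox5b and Slc25a4, among 414 of 17903 genes. Without COPD replicate 5 edgeR called Cycs, among 410 of 12762 genes. Over the 7 libraries with Y-linked transcripts edgeR called Vegfa, among 488 of 13195 genes. The count depended on scaling and on single libraries. With library size alone 2 of the 27 were listed as higher and 0 as lower (2780 of 12697 genes in either direction). By limma on log2(TPM + 1) 0 were listed as higher and 1 as lower (3018 of 11166 genes). Without COPD replicate 4 edgeR listed 4 as higher (1679 of 12834 genes). Without control replicates 2 and 5, each left out alone, it listed 4 and 6 (1477 of 12766 and 1558 of 12778 genes). The median of this list was 0.03 in TPM with limma, where the median of all genes was -0.18. COPD replicate 4 was the highest of the 10 libraries for both Ppargc1a and Cycs, and COPD replicate 1, the lowest for Ppargc1a, was above every control for Cycs.

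Targets of the PPARs in lipid use had the widest range of log2 fold changes of the 5 lists (-0.20 to 1.79). Of 28 listed genes 26 were tested, and 6 were listed as higher and 0 as lower at an unadjusted p under 0.05 (median log2 fold change 0.14). By limma on log2(TPM + 1) 2 were listed as higher and 1 as lower, where 3018 of 11166 genes were listed in either direction. Without COPD replicate 4 edgeR listed 3 as higher and 2 as lower, where 1679 of 12834 genes were listed. Pdk4, the sixth by p and chosen after its values were seen, the kinase gene that shuts pyruvate dehydrogenase when fat is burnt, was at 185, 826, 630, 1052 and 109 CPM over COPD replicates 1 to 5, against 135, 93.1, 414, 17.2 and 213 CPM in control replicates 1 to 5 (log2 fold change 1.68 ± 0.73, edgeR adjusted p = 0.316). The mitochondrial uncoupling protein gene Ucp3 was at 284, 592, 461, 587 and 80.3 CPM over COPD replicates 1 to 5, against 101, 92.2, 231, 23.5 and 134 CPM in control replicates 1 to 5 (1.79 ± 0.57, edgeR adjusted p = 0.189). For both genes COPD replicates 2, 3 and 4 were higher than all controls and COPD replicate 5 lay within the control range, and for Ucp3 COPD replicate 1 was higher than all controls too. Plin5, which coats lipid droplets at mitochondria, was at 18.8, 18.6, 13.3, 46.2 and 7.84 CPM over COPD replicates 1 to 5, against 6.26, 4.44, 10.3, 4.55 and 5.30 CPM in control replicates 1 to 5 (1.77 ± 0.42, edgeR adjusted p = 0.0973). Plin5 was called by DESeq2, among 414 of 17903 genes. Without COPD replicate 5 edgeR called 410 of 12762 genes, among them Plin5, Ucp3 and Mlycd, the malonyl-CoA decarboxylase gene (1.98, 2.05 and 0.78). Over the 7 libraries with Y-linked transcripts edgeR called Plin5 (1.39, adjusted p = 0.0389), among 488 of 13195 genes. COPD replicates 3 and 4 were above all controls for Ppara, Ucp3 and Pdk4, and COPD replicate 2 was so for Ucp3 and Pdk4 and within the control range for Ppara.

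Genes of mitochondrial transcription and replication, the step that Tfam serves, had the narrowest range of the 5 lists (-0.28 to 0.30). Of 18 genes, 10 had a log2 fold change above 0 and 8 below, and the median was 0.02. At an unadjusted p under 0.05, 0 were listed by edgeR or DESeq2. By limma on log2(TPM + 1) 0 of 17 were listed as higher and 3 as lower, against 3018 of 11166 genes in either direction. With library size alone 1 was listed as lower (2780 of 12697 genes), and by voom 1 as higher (2348 of 12697 genes). The mitochondrial RNA polymerase gene Polrmt was at 31.98 ± 3.12 CPM in COPD and 28.8 ± 1.21 CPM in control (log2 fold change 0.15 ± 0.09, edgeR adjusted p = 0.479), the DNA polymerase gene Polg had a log2 fold change of -0.16 ± 0.10, and Mterf2 one of 0.30 ± 0.15.

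**Figure D5:**
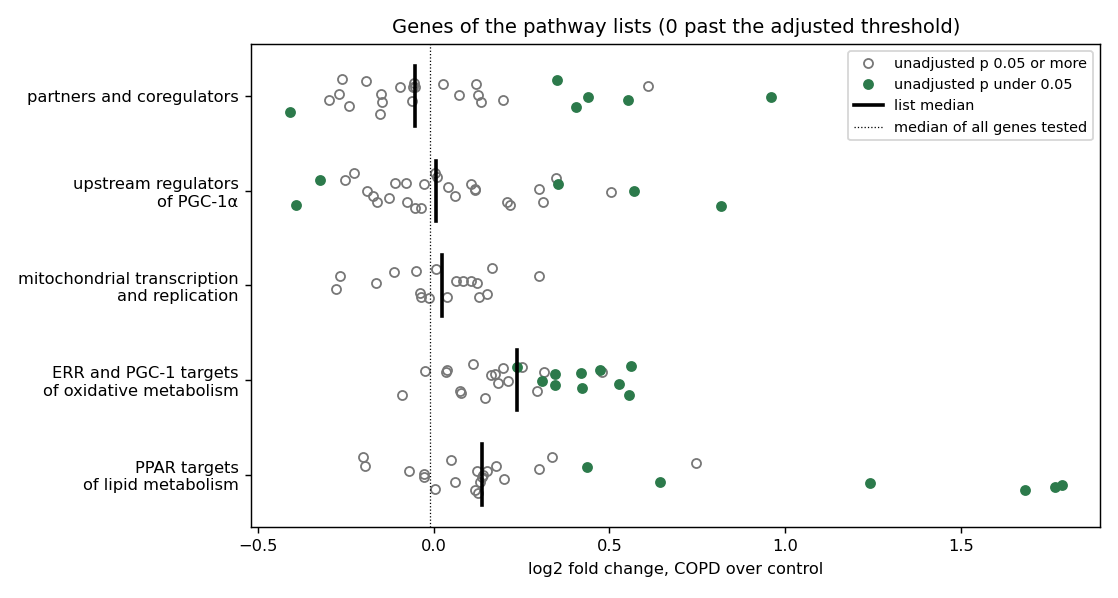
Log2 fold change, COPD over control, of each tested gene of the 5 lists; filled points have an unadjusted p under 0.05 by edgeR, thick bars are list medians and the dotted line is the median of all tested genes (-0.01). The list medians run from -0.05 (partners and coregulators) to 0.24 (ERR and PGC-1 targets), and the PPAR targets reach 1.79.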

How the data were processed

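The authors deposited expected counts per gene and TPM for the same 18025 genes. Per the submitters' processing notes, RSEM 1.2.12, Bowtie2 2.2.5, HISAT2 2.0.4, build mm9 and DESeq2 1.4.5 were used, in roles not given. Expected counts (30.7% not whole) were rounded, filtered with filterByExpr, scaled by TMM and compared with edgeR 4.0.16 (glmQLFit, glmQLFTest; R 4.3.3) over all 12697 genes kept. The standard error is the log2 fold change over the square root of F. Log2 CPM used a prior count of 2. Alternatives used DESeq2 1.42.0 and limma 3.58.1; the procedure was tested on simulated data. Library totals make 1 CPM, before scaling, stand for 14.1 to 17.3 counts, so the lowest member, Esrrg, rests on 56 to 172 counts.

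Named genes are the 9 members, up to 5 genes of smallest p per list, and the 3 most alike per member, without predicted or clone-named genes. Some genes that this rule names are not reported here. The members and lists were chosen with earlier results of these data known, and the cAMP response element was added after the values were seen. Figures were drawn with matplotlib 3.10.9.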

Additional observations from a re-analysis of the deposited data

Results flagged for a closer look

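In the 18 groups of 5 libraries (9 genes in COPD and in control), 2 held a library far from the others by Dixon's gap test at its 95% critical value, where chance flags about 1 in 20 groups. Ppargc1b was at 5.49 CPM in control replicate 4, while the other controls lay between 9.04 and 9.82 CPM. Esrrg was at 9.71 CPM in control replicate 1, while the other controls lay between 4.62 and 6.08 CPM.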

How the results depend on the processing

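None of the 9 regulators was called under any of the 22 alternatives. Over all genes, 8 were called by edgeR, against 17 with no low-count filter, 414 by DESeq2, 137 by voom with sample weights, 97 and 63 by limma on log2(TPM + 1) and log2(TPM + 0.1), 2 by limma with no filter, 488 in the 7 libraries with Y-linked transcripts and 216 with a term for those transcripts. With 1 library left out the count ran from 0 (without COPD replicate 2, with 1510 at an unadjusted p under 0.05) to 410 (without COPD replicate 5). It was also 5 without COPD replicate 4 and 3, 3, 1, 1 and 2 without control replicates 1 to 5. The cause of these shifts was not tested.

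Tfam changed sign with upper-quartile factors (-0.024), library size alone (-0.15), no low-count filter (-0.0036), limma on TPM (-0.18, -0.20 and -0.18 with pseudocounts of 1, 0.1, and 1 with no filter), voom (-0.0066), the Y-linked libraries (-0.046) and the Y-linked term (-0.056). Without 1 library each it ran from -0.037 to 0.043. In the same 3 TPM settings Ppargc1b was at -0.046, -0.073 and -0.046, Polrmt at -0.053, -0.056 and -0.053, and Slirp at -0.0386, -0.0388 and -0.0386. Polrmt was at -0.0068 with library size alone and Ppargc1a at -0.024 with the pseudocount of 0.1. Without 1 library each, Ppargc1a ran from -0.080 to 0.66 and Esrrg from -0.29 to 0.038. These values are log2 fold changes. The median of all genes was -0.17 with library size alone, and -0.18, -0.21 and -0.097 in the 3 TPM settings.

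With the replicate number as a block, 7 genes and 0 of the 9 regulators were called. At an unadjusted p under 0.05 this fit listed 1 of 9, against 1657 of 12697 genes. Same-numbered libraries correlated at -0.14 to 0.0413 after group means were removed, and no COPD library correlated best with the control of its own number. No pairing by number was thus seen, though such correlations cannot exclude one.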

Other observations

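Markers of other cell types were summed as TPM, and their part in the levels of the 9 regulators was not tested. The brown-fat list, whose cells are rich in PGC-1α, summed to 934 to 1677 TPM in COPD and 913 to 1440 TPM in control. Nearly all of it was Cox7a1, which muscle also expresses (log2 fold change 0.57 ± 0.20, edgeR adjusted p = 0.229), while Cidea lay at 0.0738 to 1.176 CPM in COPD and 0.199 to 0.620 CPM in control. The adipocyte list summed to 459.96 to 814 TPM in COPD and 531 to 676 TPM in control. Most of it was Fabp4 (576 ± 154 TPM in COPD and 585 ± 77.1 TPM in control). Macrophage markers summed to 42.9 to 140.4 TPM in COPD and 106 to 185 TPM in control, with 8 of 9 log2 fold changes below 0. Tendon and fibroblast markers summed to 157 to 282 TPM in COPD and 275 to 318 TPM in control. Most of this sum was Dcn (202 ± 37.3 TPM in COPD and 263 ± 22.3 TPM in control). Of the 6 markers tested, 4 had a log2 fold change above 0 and 2 below (median 0.46), so the sum does not describe the list.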
